A study of Mus musculus with 4 samples.

Results

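RNA levels of 10 stemness and pluripotency marker genes were examined in 4 mouse oral cancer cell lines, each measured on 1 Affymetrix Mouse Clariom S array. The genes were taken by symbol from the platform annotation as Nanog, Pou5f1, Lin28a, Lin28b, Myc, Mycn, Bmi1, Prom1, Cd44 and Lgr5. All 10 were found among 19505 named genes, each with 1 probe set. M1-2 and M2-3 were cultured from separate tongue tumors of C57BL/6 mice that had received the carcinogen 4-nitroquinoline 1-oxide (4-NQO) together with arecoline, an alkaloid of the areca nut. NHRI-HN1 was selected from M1-2 by sphere culture, growth in suspension with epidermal growth factor and without serum, and NHRI-HN2 was selected from M2-3 in the same way. The labels describe all 4 as oral cancer cell lines kept in serum-containing medium in dishes, so the sphere-selected lines were also profiled after their return to that culture. Each line stands for 1 tumor or 1 selection, and no repeat culture was measured. In the study NHRI-HN1 was the tumorigenic line and the other 3 were the non-tumorigenic group. That grouping refers to tumor growth in C57BL/6 mice and does not hold for M1-2 and M2-3 in nude mice.

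The markers belong to different stem cell programs. Pou5f1, which encodes Oct4, and Nanog are transcription factors that hold embryonic stem cells in the pluripotent state together with Sox2. Lin28a and Lin28b are RNA-binding proteins that block the maturation of the let-7 microRNAs, and Myc and Mycn are transcription factors that drive growth. Bmi1 is a subunit of Polycomb repressive complex 1, which silences genes that would halt the renewal of adult stem cells. Prom1 (Prominin-1, CD133) and Cd44, a receptor for hyaluronan, are surface proteins used to sort cancer stem cells, and Lgr5 is a receptor for R-spondins that marks cycling stem cells of the intestine and hair follicle. The study assayed Prominin-1 and CD44 by flow cytometry and Nanog, Oct4 and Klf4 by immunoblot. Its methods also list an antibody to Sox2. Those proteins were not analysed here.

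The 2 promoter windows below carry letters of sites that link these markers, and 2 let-7 sequences follow. The first is the Nanog promoter window (RefSeq, GRCm38.p6, chr6:122707239-122707538, plus strand), shown because it holds an octamer and a Sox site side by side, the element through which Oct4 and Sox2 are known to drive Nanog in embryonic stem cells. Its capitals mark the octamer letters TTTGCAT followed, after 1 base of any kind, by the Sox letters ACAATG, a motif searched on both strands.
Nanog: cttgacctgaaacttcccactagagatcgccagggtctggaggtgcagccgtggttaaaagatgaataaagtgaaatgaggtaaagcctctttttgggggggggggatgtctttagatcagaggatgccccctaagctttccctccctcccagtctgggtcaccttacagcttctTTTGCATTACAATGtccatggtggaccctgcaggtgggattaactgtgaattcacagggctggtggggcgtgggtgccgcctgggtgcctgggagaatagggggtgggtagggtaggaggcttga
The second is the Bmi1 promoter window (RefSeq, GRCm38.p6, chr2:18676768-18677067, plus strand), shown because it holds an E-box, the site bound by Myc family proteins with their partner Max. Its capitals mark the match to CACGTG, which reads the same on both strands.
Bmi1: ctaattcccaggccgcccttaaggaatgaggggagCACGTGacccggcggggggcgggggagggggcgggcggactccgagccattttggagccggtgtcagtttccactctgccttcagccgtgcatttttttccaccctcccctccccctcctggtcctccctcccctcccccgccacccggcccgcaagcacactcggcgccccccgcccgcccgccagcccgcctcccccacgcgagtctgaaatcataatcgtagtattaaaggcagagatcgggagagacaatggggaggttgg
The third set gives 2 mature let-7 microRNAs, whose maturation Lin28a and Lin28b block, with the seed (bases 2 to 8) in capitals. No Lin28 site is marked.
let-7a-5p: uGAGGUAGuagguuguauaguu
let-7g-5p: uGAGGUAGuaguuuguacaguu

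Each window runs from 250 bases before to 50 bases after an annotated start, and 8 of the 10 genes had at least 1. The joined octamer and Sox match was found in 2 of 32851 mouse promoter windows, both of them Nanog windows that overlap each other. The letters searched are those of the Nanog element with 1 base left free, so its match was fixed in advance. Looser forms of the joined site were not searched, so the count does not show how rare such sites are. The octamer letters alone were in 4.63% of windows and the Sox letters alone in 12.6%, the latter also in windows of Pou5f1, Lin28a and Bmi1. The E-box was in 7.15% of all windows, and among the markers in those of Bmi1 and Lin28b (CACGTG at bases 202 to 207 of the Lin28b window). The TCF/LEF letters CTTTGAT (3.73% of windows, both strands) and the TATA letters TATAAA (13.6%, both strands) were in no window of the markers. CpG dinucleotides numbered 23 in the Bmi1 window, 6 in the Cd44 window and 4 in each Nanog window, against a median of 7 over all windows. Of 10 mature let-7 sequences of distinct name, 9 shared the seed GAGGUAG. These matches describe letters only, and binding was not measured.

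Expression values are those deposited by the authors, taken as log2, so that a difference of 1 is called 2-fold. No detection call accompanies them. A background level was therefore set on each array as the 95th percentile of 1410 olfactory and vomeronasal receptor genes, which oral epithelial lines are not known to use; it was 4.16 in M1-2 against 4.21 in NHRI-HN1, and 4.23 in M2-3 against 4.00 in NHRI-HN2. Between 53.9% and 56.7% of the named genes lay above it on each array, and 36.0% lay at or under it on all 4. By definition 5% of the receptor genes exceed it, so a value just above 4 is weak evidence of expression. With 1 array per line, no spread within a line is known, and neighbors in any order of levels could not be tested against it.

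The markers of the pluripotent state were at background in nearly every line. Pou5f1 was 2.27 in M1-2 and 2.20 in NHRI-HN1, with 2.37 in M2-3 and 2.41 in NHRI-HN2. These values span 0.21, and all lie under the lower quartile of their arrays, which was 3.02 to 3.16. Nanog was 4.32 in M1-2 compared with 3.91 in NHRI-HN1, and 4.13 in M2-3 compared with 3.59 in NHRI-HN2. M1-2 alone was above its background level for Nanog, by a small margin, while the other 3 lines were at background, where values have no dependable order. The sphere-selected lines differed from their parents by -0.41 (NHRI-HN1) and -0.54 (NHRI-HN2) as measured. With values raised to the background level, NHRI-HN1 differed from M1-2 by -0.11. NHRI-HN2 and M2-3 were both at background, so raised values would give only the difference between the background levels of their arrays.

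Both Lin28 genes were also at background throughout. Lin28a was 3.06 in M1-2 against 3.06 in NHRI-HN1, and 3.00 in M2-3 against 2.93 in NHRI-HN2, and Lin28b was 3.99, 3.73, 3.74 and 3.47 in the same order. Mycn, the Myc family member of neural and embryonic progenitors, was 2.65 in M1-2 and 2.95 in NHRI-HN1, with 2.80 in M2-3 and 2.86 in NHRI-HN2. Prom1 was 3.62 in M1-2 compared with 3.17 in NHRI-HN1, and 3.05 in M2-3 compared with 3.11 in NHRI-HN2. In all, 5 of the 10 markers (Pou5f1, Lin28a, Lin28b, Mycn and Prom1) did not exceed the background level in any line, against 36.0% of all named genes. The widest range among these 5 was 0.57, for Prom1. Values at background have no dependable order, so the lines are not ranked for these genes. A share of positive cells too small to move the mean of a culture would not be visible in such values.

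**Figure D1:**
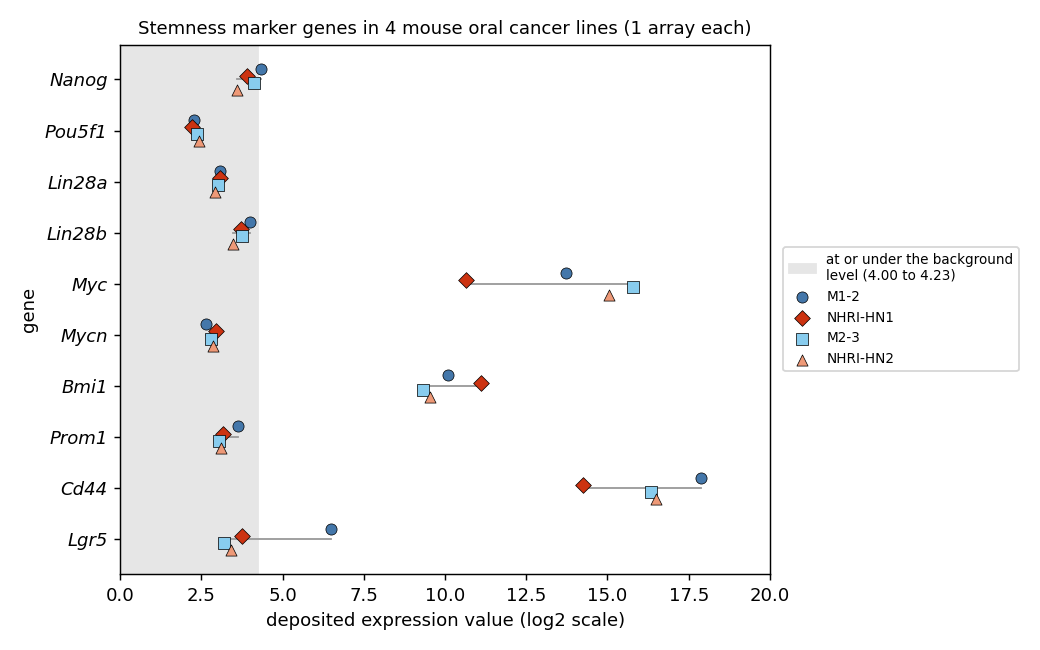
Deposited expression value (log2 scale) of each of the 10 markers in the 4 lines; each symbol is 1 array, the grey line joins the lowest and highest line, and the shaded area is at or under the background level. Myc, Bmi1 and Cd44 lie above background in all 4 lines, with NHRI-HN1 lowest for Myc (10.65) and Cd44 (14.24) and highest for Bmi1 (11.11).

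Cd44 was strongly expressed in all 4 lines and lowest in NHRI-HN1. Its values were 17.89 in M1-2 against 14.24 in NHRI-HN1, and 16.33 in M2-3 against 16.50 in NHRI-HN2. The sphere-selected NHRI-HN1 thus stood below its parent, with a difference of -3.65, while NHRI-HN2 and its parent lay 0.17 apart. Of all named genes, 3.01% were at least as far apart as Cd44 in the first pair, and 75.2% in the second. The parents differed as well, with M1-2 higher than M2-3 by 1.56. The order was M1-2, NHRI-HN2, M2-3 and NHRI-HN1, with gaps of 1.39, 0.17 and 2.09. The splice forms of Cd44 were not told apart by its single value.

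Myc was the marker that varied most. It was 13.71 in M1-2 and 10.65 in NHRI-HN1, with 15.78 in M2-3 and 15.05 in NHRI-HN2, a range of 5.13. Both lines of the M2-3 tumor were above both lines of the M1-2 tumor, and each sphere-selected line was below its parent. The difference was -3.06 for NHRI-HN1 against M1-2, a size reached by 4.23% of all named genes in that pair, and -0.73 for NHRI-HN2 against M2-3, reached by 21.7%. The order was M2-3, NHRI-HN2, M1-2 and NHRI-HN1, with gaps of 0.73, 1.34 and 3.06.

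Lgr5 was above background in 1 line only. It was 6.49 in M1-2 compared with 3.76 in NHRI-HN1, and 3.19 in M2-3 compared with 3.42 in NHRI-HN2. The line selected from M1-2 was at background, a difference of -2.73 (reached by 5.09% of all named genes), and neither line of the other tumor exceeded background. Since NHRI-HN1 was at background, the size of this difference depends on the background of that array; it was -2.28 with values raised to the background level.

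Bmi1 was highest where Myc and Cd44 were lowest. It was 10.08 in M1-2 against 11.11 in NHRI-HN1, and 9.33 in M2-3 against 9.53 in NHRI-HN2. NHRI-HN1 was the highest line, 1.03 above M1-2 and 1.58 above NHRI-HN2, and the other 3 lines lay within 0.75 of each other. A difference of 1.03 or more was seen for 23.3% of all named genes between NHRI-HN1 and M1-2, and with array medians subtracted it was 0.98, under the 2-fold limit.

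Of the 10 markers, 4 were at least 2-fold apart between NHRI-HN1 and M1-2, against a background of 24.3% of all named genes. Of these, 3 were lower in NHRI-HN1 (Cd44, Myc and Lgr5; background 12.2%) and 1 was higher (Bmi1; background 12.1%). No marker was 2-fold apart between NHRI-HN2 and M2-3, where the background was 12.2% (6.52% higher and 5.69% lower). The median difference of the 10 markers was -0.34 in the first pair, against 0.00 over all named genes, and 0.05 in the second, against -0.06. Both marker medians fall among genes at or near background, whose differences are not dependable, so they are not read as a shift. The pairs as a whole also differed in distance, with 4737 named genes at least 2-fold apart in the first and 2381 in the second.

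**Figure D2:**
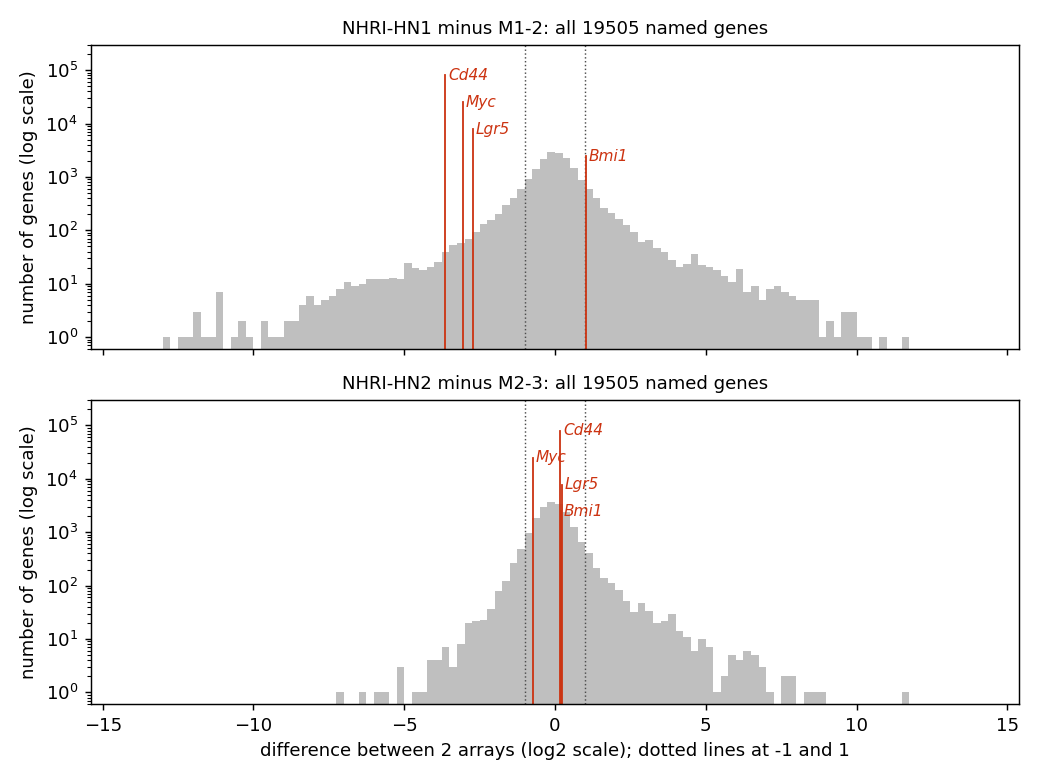
Number of named genes (log scale) by their difference between a sphere-selected line and its parent (log2 scale), with the 4 markers that were at least 2-fold apart in the upper pair drawn as red lines in both panels. Cd44, Myc and Lgr5 lie at -3.65, -3.06 and -2.73 in the upper panel, and all 4 lie within the 2-fold limits in the lower panel.

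NHRI-HN1 was then set against the average of the other 3 lines, as the study grouped them, with limma and Benjamini-Hochberg adjustment over all named genes. No marker passed an adjusted p of 0.05, a threshold passed by 0.62% of the named genes (0.508% higher and 0.113% lower in NHRI-HN1). Myc differed by -4.20 (SE 0.90, adjusted p = 0.22 from limma) and Cd44 by -2.67 (SE 0.73, adjusted p = 0.36 from limma). These were the 2 markers, both lower, with an unadjusted p under 0.05, against 9.3% of all named genes (5.88% higher and 3.42% lower). Bmi1 was 1.46 higher (SE 0.66, adjusted p = 0.60 from limma), and Lgr5 differed by -0.61 (SE 1.42, adjusted p = 0.93 from limma). By position alone, 2 markers, Cd44 and Myc, had NHRI-HN1 below every other line by 2-fold or more (background 4.99%), and 1, Bmi1, had it above them by as much (background 5.89%).

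Error was estimated here from the spread of 3 single arrays, with 2 residual degrees of freedom, and NHRI-HN2 is not independent of M2-3. Leaving out M1-2 sets NHRI-HN1 only against the lines of the other tumor, so differences between the tumors enter that fit. Its error is the spread between M2-3 and the line selected from it. M1-2 minus M2-3 was -2.07 for Myc and 1.56 for Cd44. Without M1-2, a fit that called 707 genes (3.62%) in place of 121, limma called both Myc, with a difference of -4.76 (adjusted p = 0.025 from limma), and Cd44, with -2.17 (adjusted p = 0.039 from limma). When the originating tumor was made a block, which compares NHRI-HN1 with M1-2 and takes its error from the other pair, no gene passed, and the adjusted p from limma was 0.052 for Cd44 and 0.12 for both Myc and Lgr5.

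The sphere-selected lines together were also compared with their parents, since selection for sphere growth is the step that separates them. No marker and no other gene passed an adjusted p of 0.05 from limma (0% of named genes). At an unadjusted p under 0.05 there were 286 genes (1.47%), none of them a marker. The mean difference was -1.90 for Myc (SE 1.63), -1.74 for Cd44 (SE 0.97), -1.25 for Lgr5 (SE 1.15) and 0.61 for Bmi1 (SE 0.84). Each mean depended on single lines of both tumors. Leaving out 1 line at a time, the difference ranged from -4.09 (without NHRI-HN2) to 0.31 (without NHRI-HN1) for Myc and from -2.87 to -0.61 (without the same lines) for Cd44. It ranged from -2.90 (without M2-3) to 0.40 (without M1-2, which leaves only lines at background) for Lgr5, and from -0.17 (without NHRI-HN1) to 1.41 (without NHRI-HN2) for Bmi1. Without 1 line the others are no longer matched by tumor, so differences between the tumors enter these values. Within its own pair, NHRI-HN2 minus M2-3 was -0.73 for Myc and 0.20 for Bmi1.

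The wider pluripotency network was examined next, as a list of 26 genes of which 24 were measured. Of these, 18 were at background in all 4 lines, against 36.0% of all named genes. Among the 18 were Esrrb, Dppa3, Utf1, Fgf4, Sall4 and Prdm14, named here after their values were seen. Of the 24, 3 were lower in NHRI-HN1 by 2-fold or more relative to M1-2 and none was higher, against 12.2% and 12.1% of all named genes, and the list median was -0.04. These shares, and 6.52% higher and 5.69% lower for the other pair, are the background of every list below. Sox2, the partner of Oct4, was 11.90 in M1-2 and 3.85 in NHRI-HN1, with 11.80 in M2-3 and 11.71 in NHRI-HN2. It was at background in NHRI-HN1 and nearly equal in the other 3 lines. It was the 1 gene of the list called against these lines, and it was lower (difference -7.95, SE 0.60, adjusted p = 0.034 from limma). In 4 alternative fits the difference stayed at -7.95 to -8.05 but no gene at all passed, Sox2 included: without M2-3 (adjusted p = 0.18 from limma), without NHRI-HN2 (adjusted p = 0.44 from limma), when the originating tumor was made a block (adjusted p = 0.052 from limma) and without an intensity trend (adjusted p = 0.053 from limma).

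Klf4, a reprogramming factor that is also active in differentiating squamous epithelium, was 10.40 in M1-2 compared with 4.93 in NHRI-HN1, and 10.99 in M2-3 compared with 11.99 in NHRI-HN2. NHRI-HN1 was far below the others, although the difference of -6.20 did not pass (SE 0.84, adjusted p = 0.076 from limma). Klf5, which supports proliferation of basal epithelial cells, was 11.86, 9.51, 14.46 and 13.05 in M1-2, NHRI-HN1, M2-3 and NHRI-HN2, lower in each sphere-selected line than in its parent. Tbx3 was 9.62 to 10.55 across the lines. Zfp42, a marker of naive embryonic stem cells, was 5.12 in NHRI-HN2 against 3.94 in M2-3. In that pair 2 genes of the list were at least 2-fold higher (Klf4 and Zfp42) and 1 was lower (Klf5).

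Of the 13 measured genes of the Lin28 and let-7 axis, limma called none, 3 were at least 2-fold higher in NHRI-HN1 than in M1-2 and 1 was lower, with a median of -0.22. Tut4, which adds uridine to let-7 precursors held by Lin28, was 4.89 in M1-2 against 8.17 in NHRI-HN1, and 4.96 in M2-3 against 5.31 in NHRI-HN2. Dis3l2, the nuclease that degrades such precursors, was 9.50 in NHRI-HN1 against 7.78 to 8.41, and Drosha, which cuts the primary transcripts, was 12.02 against 10.92 to 11.68. Ccnd2, a cyclin of the G1 phase, was 16.11 in M1-2 and 11.40 in NHRI-HN1, with 15.50 in M2-3 and 15.51 in NHRI-HN2 (difference -4.31, SE 0.50, adjusted p = 0.056 from limma). Hmga2, a chromatin protein under let-7 control, followed the tumor of origin, at 7.47 in M1-2 and 7.25 in NHRI-HN1 against 4.28 in M2-3 and 4.74 in NHRI-HN2. None of the 13 was 2-fold apart between NHRI-HN2 and M2-3, and the median there was 0.02.

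Of 14 genes of the Myc partner and antagonist network, 6 lay 2-fold or more under M1-2 in NHRI-HN1 and none lay above (median -0.39), and limma called none. Mxd4, an antagonist that competes for Max, was 12.04 in M1-2 and 10.07 in NHRI-HN1, and Fbxw7, which marks the Myc protein for degradation, was 8.51 and 6.56. Mlx and Mlxip, which form a related dimer, were each 1.39 lower on these arrays, at 9.33 and 8.41 in NHRI-HN1. Of 23 measured Myc target genes of ribosome building and growth, 2 were higher and 3 lower, with a median of 0.08 and no limma call. Nucleolin (Ncl) was 11.99 in M1-2 and 14.84 in NHRI-HN1 and nucleophosmin (Npm1) 15.45 and 17.36. The spermidine synthase Srm was 14.18 and 11.74 and the ornithine decarboxylase Odc1 12.62 and 10.98, lower in NHRI-HN1. Between NHRI-HN2 and M2-3, 1 gene of the first list (Mxd3, 4.89 against 6.35) was lower, and 3 of the second were higher (Odc1, Cad and Rrp12).

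Of 17 measured genes of Polycomb repressive complex 1, the complex of Bmi1, 3 were at least 2-fold higher in NHRI-HN1 than in M1-2 and 1 was lower (median 0.35, no limma call). Rnf2, the ubiquitin ligase that Bmi1 activates, was 11.00 in M1-2 compared with 12.77 in NHRI-HN1, and 11.37 in M2-3 compared with 11.15 in NHRI-HN2, so that both partners of this core were highest in NHRI-HN1. Phc1 was 10.56 in NHRI-HN1 against 9.47 to 9.65. Pcgf6, a relative of Bmi1, was 8.18 in M1-2 and 9.34 in NHRI-HN1, yet 11.25 in M2-3 and 10.67 in NHRI-HN2. In the other pair only Phc2 reached 2-fold, at 10.67 in NHRI-HN2 and 9.28 in M2-3, and the median was -0.06.

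The Wnt stem cell program around Lgr5 had 17 measured genes, of which limma called none. Between NHRI-HN1 and M1-2, 3 were at least 2-fold higher and 4 lower (median -0.32). Lgr6, a related receptor that marks stem cells of the skin, was likewise above background in M1-2 alone, at 10.56 in M1-2 and 3.46, 3.74 and 3.21 in NHRI-HN1, M2-3 and NHRI-HN2, all 3 at background. Lgr4, the third receptor of the family, was expressed in every line and lower in each sphere-selected line, at 12.36 in M1-2 against 10.20 in NHRI-HN1, and 13.52 in M2-3 against 12.04 in NHRI-HN2. Rspo3, a ligand of these receptors, was above background in both sphere-selected lines, at 5.41 in NHRI-HN1 and 5.02 in NHRI-HN2, and in neither parent, at 3.16 and 3.58. Lef1, a nuclear effector of Wnt signaling, was 7.97 in NHRI-HN1 and at background in the other 3 lines, at 2.41 to 3.59 (difference 4.88, SE 0.63, adjusted p = 0.069 from limma). Ephb3, a Wnt target, was 8.32 in M1-2 and 5.90 in NHRI-HN1, and Apcdd1, a Wnt inhibitor, was 9.40 in M2-3 and 7.21 in NHRI-HN2. In the second pair 2 genes were higher and 2 lower (median 0.15), but 1 of the higher, Lef1, was at background in both lines.

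**Figure D3:**
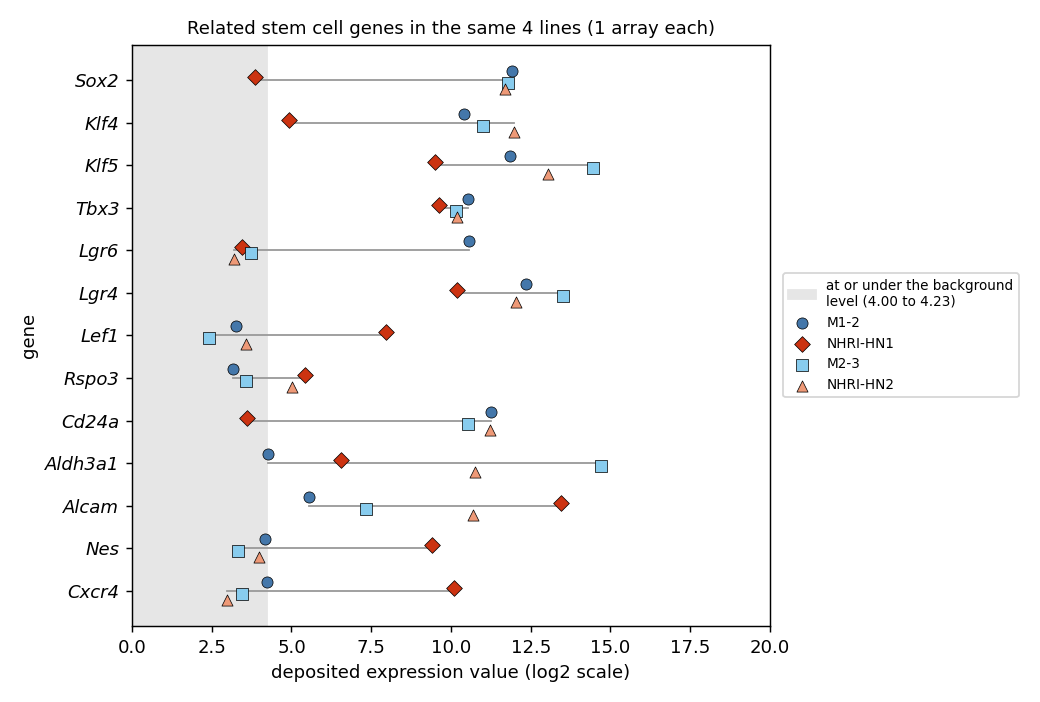
Deposited expression value (log2 scale) of 13 genes of the same stem cell programs in the 4 lines, 1 array each, drawn as for the markers. Sox2, Klf4 and Cd24a are lowest in NHRI-HN1 (3.85, 4.93 and 3.62), and Lef1, Alcam, Nes and Cxcr4 are highest there (7.97, 13.46, 9.42 and 10.10).

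Genes that act with Cd44 differed between the lines in several ways. Of 12 measured ligand, splicing and anchor genes, 2 were at least 2-fold higher and 4 lower in NHRI-HN1 than in M1-2 (median -0.03), 3 were higher and 3 lower in NHRI-HN2 than in M2-3 (median -0.28; 1 of these 6 was at background in both lines), and limma called none. Has2, which makes the Cd44 ligand hyaluronan, was 6.06 in M1-2 and 3.52 in NHRI-HN1, with 4.03 in M2-3 and 8.30 in NHRI-HN2. Has3, another hyaluronan synthase, was above background in M2-3 alone, at 6.98 against 3.33 in NHRI-HN2 and less in the other lines. Esrp2, a splicing factor that sustains the epithelial variant forms of Cd44, was 5.86 in M1-2 compared with 2.97 in NHRI-HN1, and 11.59 in M2-3 compared with 10.48 in NHRI-HN2. The anchors moesin (Msn) and ezrin (Ezr) ran opposite ways in the first pair, Msn at 13.20 in M1-2 and 10.93 in NHRI-HN1, Ezr at 5.97 and 8.13. Hmmr, a second hyaluronan receptor that also serves the mitotic spindle, was 7.99 in M1-2 against 10.09 in NHRI-HN1, and 13.09 in M2-3 against 11.68 in NHRI-HN2.

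Other surface and enzyme markers of cancer stem cells lay on both sides of their parental levels. Of 22 genes, 7 were at least 2-fold higher and 5 lower in NHRI-HN1 than in M1-2 (median 0.24), and 5 were higher and 3 lower in NHRI-HN2 than in M2-3 (median 0.23; 1 of these 8 was at background in both lines). Against the other 3 lines, limma called 1 higher and 1 lower. Cd24a, a surface glycoprotein whose low level is read together with high Cd44 in human breast cancer stem cells, was 11.25 in M1-2 and 3.62 in NHRI-HN1, with 10.54 in M2-3 and 11.22 in NHRI-HN2, and it fell (difference -7.38, SE 0.68, adjusted p = 0.036 from limma). Cxcr4, a chemokine receptor, was 4.24 in M1-2 compared with 10.10 in NHRI-HN1, and 3.46 in M2-3 compared with 2.99 in NHRI-HN2, and it rose (difference 6.54, SE 0.72, adjusted p = 0.048 from limma). Both genes missed the threshold in fits in which no gene passed, with differences of -7.28 to -7.63 for Cd24a and 5.86 to 6.54 for Cxcr4. These were the fits without M2-3 (adjusted p = 0.18 for Cd24a and 0.22 for Cxcr4 from limma) and without NHRI-HN2 (adjusted p = 0.44 and 0.45 from limma), with the originating tumor as a block (adjusted p = 0.052 and 0.057 from limma) and with no intensity trend (adjusted p = 0.053 and 0.067 from limma).

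Nes, the intermediate filament nestin of neural and muscle progenitors, was 9.42 in NHRI-HN1, and elsewhere 3.33 to 4.17 (difference 5.59, SE 0.64, adjusted p = 0.054 from limma). Alcam, an adhesion molecule also known as CD166, was higher in each sphere-selected line than in its parent, at 5.55 in M1-2 and 13.46 in NHRI-HN1, and at 7.33 in M2-3 and 10.70 in NHRI-HN2. Its mean difference between sphere-selected lines and parents had an unadjusted p of 0.0063 and did not pass adjustment (adjusted p = 1 from limma). Prom2, the relative of Prom1, was at background in M1-2 and NHRI-HN1 and stood at 8.64 in M2-3 and 5.79 in NHRI-HN2. Aldh3a1, an aldehyde dehydrogenase of stratified epithelia, was 14.70 in M2-3 and 10.76 in NHRI-HN2, against 4.28 in M1-2 and 6.54 in NHRI-HN1.

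**Figure D4:**
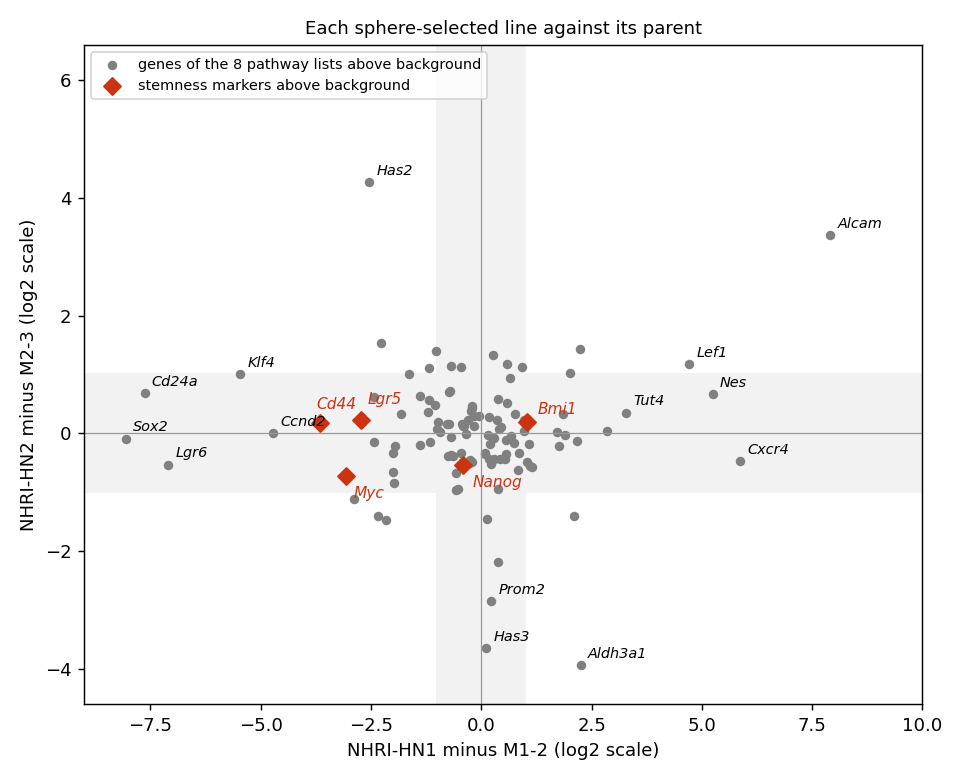
Difference between each sphere-selected line and its parent (log2 scale), NHRI-HN1 minus M1-2 on the horizontal axis and NHRI-HN2 minus M2-3 on the vertical axis; grey points are the genes of the 8 pathway lists above background in at least 1 line, red diamonds the 5 markers above background in at least 1 line, and the shaded bands lie within 2-fold. The 4 markers that differ in the first pair lie in the band of the second, and Alcam (7.91 and 3.37) is far above its parent in both.

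Cell type markers also differed between the lines, and their part in the results was not tested. Of 6 keratinocyte markers, 5 were above background in M1-2, 1 in NHRI-HN1 and 6 in each of M2-3 and NHRI-HN2, with summed log2 levels of 60.6, 22.2, 102.7 and 98.5. All 6 were lower in NHRI-HN1 than the average of the other 3 lines, from -7.27 (Dsg3) to -13.89 (Krt14). Of 6 skeletal muscle markers, 3 were above background in M1-2, 5 in NHRI-HN1, none in M2-3 and 2 in NHRI-HN2, with sums of 24.8, 61.9, 17.4 and 20.2. All 6 were higher in NHRI-HN1 than that average, from 0.69 (Myod1, at background in all 4 lines) to 10.95 (Des). Myog differed by 8.33, Chrna1 by 8.20 and Mylpf by 9.07. Of 5 measured fibroblast markers, 4, 3, none and 3 were above background in the same order of lines, with sums of 36.3, 42.0, 15.1 and 29.8, and Thy1 was at background in all 4. By the keratinocyte markers alone M2-3 and NHRI-HN2 matched a squamous epithelial origin and M1-2 in part. In NHRI-HN1 Krt14, Cdh1 and Perp were at background. NHRI-HN2 also had 3 fibroblast and 2 skeletal muscle markers above background, whereas M2-3 had none of either. The 2 leukocyte and 3 endothelial markers were at background in every line, and of 4 germ cell markers only Sycp3 was above it, at 4.71 to 5.20.

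The genes nearest to the 3 most variable markers were sought by the Euclidean distance between gene-centered log2 values over the 4 lines. For Myc these were Castor1, an arginine sensor of the mTORC1 pathway (distance 0.13), the orphan nuclear receptor Nr4a2 (0.40) and the small GTPase Rab30 (0.44). For Cd44 they were the glycosyltransferase B3gnt3 (0.038), the adaptor Sh3d19 (0.27) and the UDP-galactose transporter Slc35a2 (0.27). For Lgr5 they were the granzyme Gzmc (0.14), the small GTPase Mras (0.18) and the immunoproteasome subunit Psmb9 (0.22). Over 4 arrays and 19505 genes some such neighbors are always found, and the distance describes likeness of levels only. Mras was 12.41 in M1-2 and 8.89 to 9.53 in the other lines, so unlike Lgr5 it was expressed throughout.

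**Figure D5:**
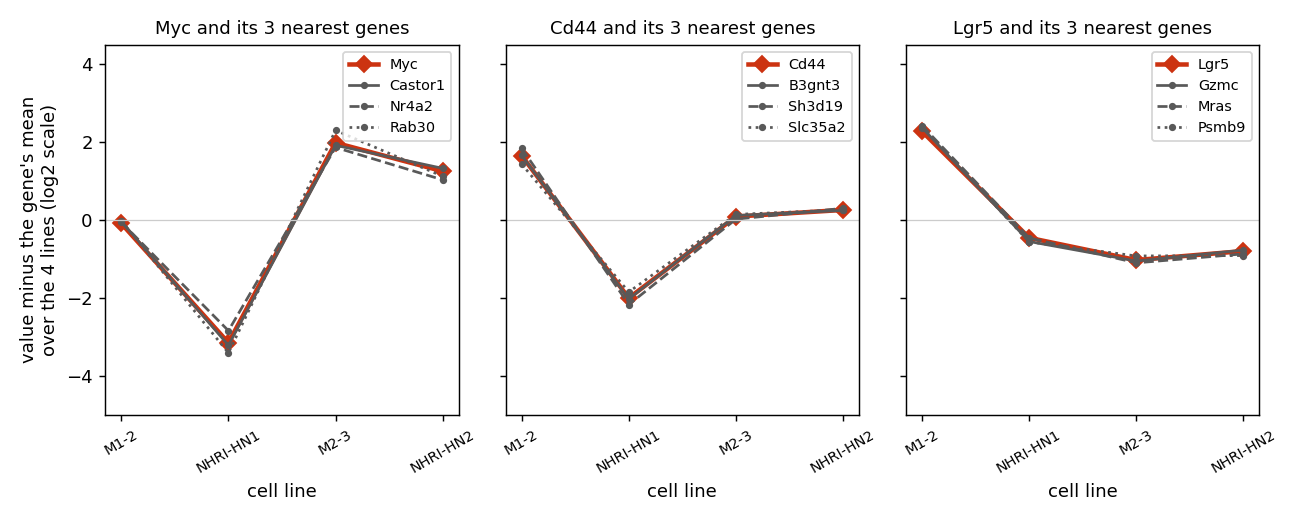
Value minus the gene's own mean over the 4 lines (log2 scale) for Myc, Cd44 and Lgr5 (red) and the 3 genes nearest to each (grey), 1 array per line. The closest single match is B3gnt3 to Cd44, at a distance of 0.038.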

How the data were processed

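Total RNA of each line was hybridised to an Affymetrix Mouse Clariom S array. The authors deposited 1 value per probe set and array, taken here as log2, and the submitters' processing notes name Partek 7; the base of the logarithm, any background correction and the normalization were not given in the sources used here. Values reach 19.77, above the usual log2 scanner range, so 1 unit need not be 2-fold in RNA. The annotation named 1 gene for 19572 of 22206 probe sets and left 2634 without a name; 55 genes with several probe sets were averaged, giving 19505. Whether probes also match pseudogenes was not examined.

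Fits used lmFit and eBayes (intensity trend) of limma 3.58.1 in R 4.3.3, after a test on simulated data. Values between 2 arrays have no test. Sequences are from RefSeq tables. The genes named were the 10 markers, Klf4 and Sox2, up to 4 genes per list and pair with the largest difference and above background, and the 3 nearest genes of each marker with a range of at least 2 over the lines; not every such list gene is printed. The markers, lists and tests were chosen with earlier results of these data known. Alternatives were quantile normalization, median centering, a floor at background, no intensity trend, omission of the dimmest 25% of genes, the brightest probe set, a block for the originating tumor, and each line left out.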

Additional observations from a re-analysis of the deposited data

Results flagged for a closer look

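No group held enough arrays to look for a sample far from the others. Between the pairs of a sphere-selected line and its parent, 9 genes of the pathway and cell type lists ran at least 2-fold in opposite directions. The pathway lists alone held 142 measured genes. None of the 10 markers could meet this rule, since none was 2-fold apart between NHRI-HN2 and M2-3. The share of all named genes that met it was not computed, so the count of 9 cannot be called unusual. With 1 array per line these differences between the pairs were not tested. Klf4 differed by -5.47 between NHRI-HN1 and M1-2 and by 1.00 between NHRI-HN2 and M2-3, which puts the pairs -6.47 apart. Has2 differed by -2.54 and 4.27 (the pairs -6.81 apart), Msn by -2.27 and 1.53 (-3.80), Odc1 by -1.64 and 1.00 (-2.64), Phc2 by -1.03 and 1.39 (-2.42) and the integrin chain Itgb1 by -1.18 and 1.11 (-2.29). The fibroblast marker Col1a1, a collagen chain, differed by -3.18 and 6.43 (-9.61). In the reverse sense, Aldh3a1 differed by 2.26 and -3.94 (6.20) and Hmmr by 2.10 and -1.41 (3.51).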

How the results depend on the processing

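No marker was called by limma in any alternative for NHRI-HN1 against the other 3 lines but 1: without M1-2 there were 2 (Myc and Cd44), in a fit that called 707 of all genes. With M2-3 or NHRI-HN2 left out, with the originating tumor as a replicate block, or with no intensity trend, the count was 0 for the markers and 0 for all genes, so these alternatives say nothing about the markers; leaving out a line gave 0 to 2 markers. For sphere-selected against parental lines every fit, with and without the replicate block, called 0 genes. The 4 markers 2-fold apart between NHRI-HN1 and M1-2 were 3 with array medians subtracted. Directions turned as follows. Leaving out 1 line, the difference of NHRI-HN1 from the rest ranged from -0.32 to 0.05 for Nanog and from -1.20 to 0.46 for Lgr5, both above 0 without M1-2, where the remaining lines are at background. The difference of sphere-selected from parental lines ranged from -2.90 to 0.40 for Lgr5 (above 0 without M1-2), from -4.09 to 0.31 for Myc (above 0 without NHRI-HN1) and from -0.17 to 1.41 for Bmi1 (below 0 without NHRI-HN1). Without NHRI-HN1, NHRI-HN2 was set against both parents, so the turns of Myc and Bmi1 include differences between the tumors. Against M2-3 alone, NHRI-HN2 differed by -0.73 for Myc and by 0.20 for Bmi1. Between NHRI-HN2 and M2-3 small differences also turned, to -0.01 for Bmi1 and -0.04 for Cd44 with array medians subtracted. Lgr5 was at background in both of these lines. Its difference of -0.23 with values raised to background is only that between the background levels of the arrays. The Bmi1 difference between NHRI-HN1 and M1-2 was 0.98 with array medians subtracted. Without the dimmest 25% of genes, where 97 genes were called, Cxcr4 missed the threshold with the same difference of 6.54 (adjusted p = 0.054 from limma). Klf4 was called without M1-2 (adjusted p = 0.026 from limma), and Nes without M1-2 (adjusted p = 0.027 from limma) and with quantile normalization (adjusted p = 0.044 from limma). Without M1-2, NHRI-HN1 was set only against the lines of the other tumor, so differences between the tumors enter the calls of that fit. The causes were not tested. With 1 array per line, repeat cultures could differ from these values by an unknown amount.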
